A study of Mus musculus with 8 samples.

Results

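Fast and slow muscle fibre isoforms were followed in RNA of mouse femoral bone shaft. The set holds 10 genes, 4 myosin heavy chains and 6 troponin subunits, taken by symbol from the 49315 gene IDs of the count table. Of the 10 genes, 6 belong to fast fibres (Myh1, Myh2, Myh4, Tnni2, Tnnt3 and Tnnc2) and 4 to slow fibres (Myh7, Tnni1, Tnnt1 and Tnnc1). All 10 passed the filter on low counts, which left 17450 genes for testing. RNA came from the femoral shafts of 8 male C57BL6 mice aged 24 weeks, of which 4 were wild type (WT) and 4 lacked Girk3, the potassium channel subunit encoded by Kcnj9 (KO). The bone ends were cut off and the marrow was washed out. The labels write the genotype as Girk3-/- and name no promoter, Cre or tissue for the deletion. Muscle is named nowhere in the labels, and the design implies 1 comparison, KO against WT bone.

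The muscle sarcomere shortens when myosin heads pull on actin filaments, and the heavy chain isoform sets how fast a fibre contracts. Troponin makes that pull depend on calcium: troponin C binds calcium, troponin I holds the filament off, and troponin T ties the complex to tropomyosin. Slow fibres use Myh7, Tnni1, Tnnt1 and Tnnc1, whereas fast fibres use Myh2 (type IIa), Myh1 (type IIx) or Myh4 (type IIb) together with Tnni2, Tnnt3 and Tnnc2. Mouse limb muscle is mostly fast, and Myh7 and Tnnc1 are also heart genes.

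The libraries held 30087749 to 36553713 counts each. The targeted gene Kcnj9 was below the low-count filter: the WT libraries had 7, 6, 6 and 23 counts and the KO libraries 0, 8, 4 and 7. Since the deleted part is not named these counts check nothing about the labels. Bone was present by its own markers, with all 10 of a bone list detected in each library, a summed level of 5116 to 12914 CPM (counts per 1000000 on scaled library sizes) in WT and 5727 to 10442 CPM in KO. Skeletal muscle RNA was abundant as well. A list of 25 genes used by all skeletal fibres, called the pan-muscle list here, summed to 32543 to 61480 CPM in WT and 49950 to 82626 CPM in KO, lowest in WT replicate 4 and highest in KO replicate 4. Both were also the most extreme libraries on the leading principal component (53.5 and -60.5), which held 33.5% of the variance. In bulk tissue, fewer fibres of a type and less RNA per fibre cannot be told apart.

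The members lie at 7 places in the genome (GENCODE M21 on GRCm38, the mm10 build). Myh2 (ENSMUSG00000033196, chromosome 11, 67171027 to 67197517), Myh1 (ENSMUSG00000056328, chromosome 11, 67200052 to 67224575) and Myh4 (ENSMUSG00000057003, chromosome 11, 67238029 to 67260446) follow one another on the plus strand within 89.4 kb. Myh7 (ENSMUSG00000053093, chromosome 14, 54970684 to 54994626, minus strand) sits 3.76 kb from the cardiac gene Myh6. The fast troponin genes Tnni2 (ENSMUSG00000031097, chromosome 7, 142441808 to 142444410) and Tnnt3 (ENSMUSG00000061723, chromosome 7, 142498836 to 142516009) are 54.4 kb apart. Tnnt1 (ENSMUSG00000064179, chromosome 7, 4504570 to 4516382, minus strand) lies 1.92 kb from cardiac Tnni3. Tnni1 (ENSMUSG00000026418, chromosome 1, 135779434 to 135810989) lies 25.4 kb from Tnnt2 and 36.5 Mb from Kcnj9 on the same chromosome. Tnnc1 (ENSMUSG00000091898) is on chromosome 14, 31208312 to 31211729, and Tnnc2 (ENSMUSG00000017300) on chromosome 2, 164777161 to 164779967, minus strand.

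Counts of the myosins carry a limit that those of the troponins do not. Of all stretches of 100 bases in the longest transcript, 9.73% in Myh1, 9.17% in Myh2 and 3.85% in Myh4 also occurred in another myosin transcript, and 11.2% in Myh7 occurred in Myh6. For stretches of 50 bases these shares were 26.7%, 26.9%, 18.9% and 22.2%. For the 6 troponin genes the share was 0% at 100 bases and at most 0.190% (Tnni1) at 50 bases. How the authors' counting treated reads with several matches is not given in the sources used here, so the split among Myh1, Myh2 and Myh4 is uncertain. Antisense or other opposite-strand genes overlap Myh1 (Myhas), Myh2, Myh7, Tnnt3, Tnnc1 (Nisch) and Tnnc2 (Ube2c), and without a stated strand setting their reads cannot be told apart from those of the member. The overlapping gene with the most counts was Ube2c, with 10866 to 21062 per library against 104846 to 166596 for Tnnc2. Relative to the member, counts of the overlapping gene were largest for Tnnc1, with 4103 to 9370 of Nisch per library against 1850 to 16299 of Tnnc1. These are counts of whole genes, and the bases or reads shared with the member were not measured. Levels, shares and ratios of Tnnc1 may thus be exposed to this limit, by an unknown amount.

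The bases in front of the transcription start are shown for Myh4, the most abundant myosin, and for Tnnc1, 1 of the slow genes that varied together across libraries. RefSeq on GRCm38.p6 gave entries for 8 of the 10 members, and Tnni2 and Tnnt3 had none. Capitals mark matches on either strand to the E-box CANNTG (bound by the myogenic factors of the MyoD family), the MEF2 consensus, the MCAT element CATTCC (bound by TEAD factors) and, on the gene's own strand, TATAAA. No match overlapped another. The windows are chr11:67237562-67237811 on the plus strand for Myh4 and chr14:31208062-31208311 on the plus strand for Tnnc1, 250 bases each.

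Myh4: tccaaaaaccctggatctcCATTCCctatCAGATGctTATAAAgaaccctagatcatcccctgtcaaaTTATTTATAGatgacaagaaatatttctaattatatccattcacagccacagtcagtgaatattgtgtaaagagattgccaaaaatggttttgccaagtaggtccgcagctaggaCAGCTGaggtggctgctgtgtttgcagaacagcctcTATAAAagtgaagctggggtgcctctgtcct
Tnnc1: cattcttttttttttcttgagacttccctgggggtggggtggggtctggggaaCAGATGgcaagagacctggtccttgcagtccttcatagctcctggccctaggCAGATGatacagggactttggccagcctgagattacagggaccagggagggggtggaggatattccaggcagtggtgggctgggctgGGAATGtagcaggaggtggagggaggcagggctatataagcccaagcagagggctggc

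The Myh4 window held a MEF2 match beginning 182 bases before the start, 2 E-boxes, 1 MCAT element and TATAAA at 2 places, beginning 213 and 31 bases before the start. The Myh1 window held the same MEF2 letters 211 bases before its start. Tnnc1 had 2 E-boxes and 1 MCAT element and neither a MEF2 match nor TATAAA. Among 32851 RefSeq windows of this length, 66.2% held an E-box, 2.92% a MEF2 match, 12.6% an MCAT element and 7.59% TATAAA. These matches describe the letters only.

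Fast isoforms dominated the muscle RNA on the bone in all 8 libraries. Levels were compared between genes as CPM per kb of exon, averaged over 8 libraries with their SD. Tnnt3 was highest at 10970 ± 2647, followed by Tnni2 at 5709 ± 1842, Tnnc2 at 5250 ± 1471 and Myh4 at 4712 ± 1600. Tnnt3 exceeded Tnni2 in 8 of 8 libraries. Tnni2 exceeded Tnnc2 in only 5 and Tnnc2 exceeded Myh4 in 6, so the order of these neighbours is uncertain. That order also depends on the length used: Tnni2 has 1497 exonic bases and Tnnc2 800, but their longest transcripts have 895 and 700. Myh1 came next at 544 ± 208, below Myh4 in 8 of 8 libraries. Then came Tnnc1 (206 ± 202), Myh2 (206 ± 81.5), Tnnt1 (114 ± 98.5), Myh7 (59.7 ± 57.7) and Tnni1 (26.0 ± 27.3). Myh2 was above Tnnc1 in all libraries except KO replicates 2 and 4, Tnnt1 above Myh7 in 8 of 8 and Myh7 above Tnni1 in 8 of 8.

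Scaled by exon length, Myh4 made up 84.7 ± 5.71% of the summed 4 myosins in the WT libraries and 84.7 ± 5.59% in the KO libraries (SD, n = 4 each). Myh1 made up 10.6 ± 4.01% and 10.2 ± 4.22%, and Myh2 4.03 ± 1.49% and 3.79 ± 1.66%. The slow isoform Myh7 held 0.676 ± 0.297% in WT and 1.34 ± 1.03% in KO. The slow share also differed by subunit. Tnni1 was 0.318 ± 0.157% of troponin I in WT, Tnnt1 0.615 ± 0.252% of troponin T and Tnnc1 2.21 ± 0.841% of troponin C, against 0.528 ± 0.450%, 1.38 ± 0.993% and 4.85 ± 3.81% in KO.

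The 4 slow isoforms stood out by their spread between mice, and the same 2 KO libraries were high for each of them. Myh7, the slow myosin motor, was at 533, 136, 409 and 169 CPM in WT replicates 1 to 4 and at 184, 971, 182 and 1527 CPM in KO replicates 1 to 4. KO replicates 2 and 4 were thus above every WT library, and KO replicates 1 and 3 lay inside the WT range. Tnni1, the slow inhibitory subunit, was at 67.5, 20.9, 71.7 and 29.5 CPM in WT and at 52.1, 169.9, 29.9 and 306.7 CPM in KO. Tnnt1, the slow tropomyosin-binding subunit, was at 160.2, 70.2, 214.7 and 85.4 CPM in WT and at 191.5, 529, 105 and 648 CPM in KO. Tnnc1, the slow calcium sensor, was at 122, 56.5, 165 and 69.6 CPM in WT and at 117, 479, 93.5 and 613 CPM in KO. For each of these troponins as well, the highest values were those of KO replicates 4 and 2 and the lowest that of WT replicate 2. From lowest to highest library the slow isoforms spanned 11.2-fold (Myh7), 14.7-fold (Tnni1), 9.24-fold (Tnnt1) and 10.9-fold (Tnnc1), whereas the 6 fast isoforms spanned 2.32-fold (Tnnt3) to 3.15-fold (Myh1).

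**Figure D1:**
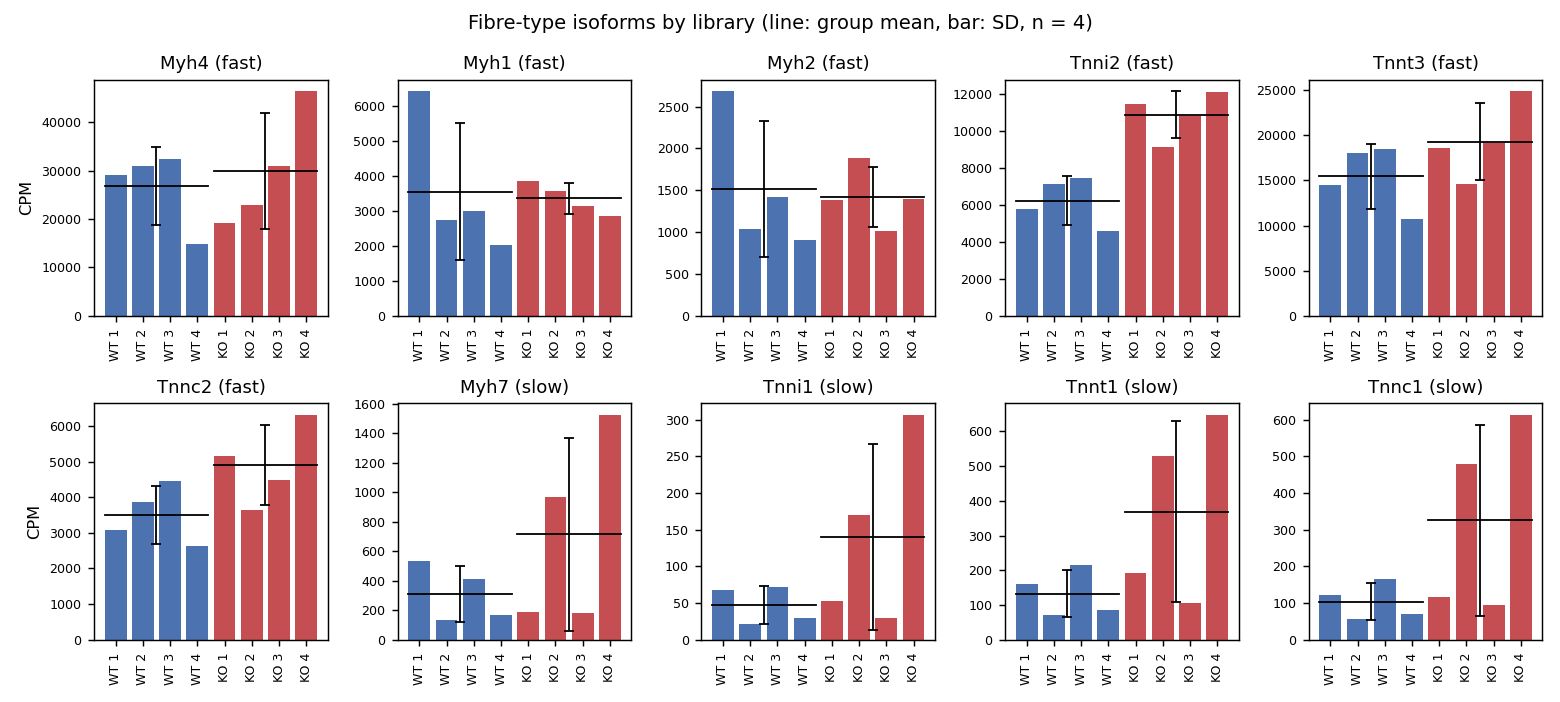
CPM of each of the 10 isoforms (y axis, from 0, own scale per panel) in WT replicates 1 to 4 (blue) and KO replicates 1 to 4 (red), with the group mean as a line and the SD as an error bar. In the slow panels KO replicates 2 and 4 tower over the other libraries, and the lowest KO bar of Tnni2 exceeds its highest WT bar.

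No member passed the comparison of KO with WT. By the quasi-likelihood test of edgeR, adjusted after Benjamini and Hochberg over all 17450 genes, 0 of 10 members had an adjusted p under 0.05, against 0.0115% of all tested genes. At an unadjusted p under 0.05 the count was 4 of 10 (Tnni1, Tnni2, Tnnt1 and Tnnc1), each higher in KO, where 9.59% of all tested genes were higher, 8.59% lower and 18.2% either. Of the members 0 were called with the trend of exon length and GC content removed (0.0172% of all tested genes), without both replicates 4 (2.62%) or without KO replicates 2 and 4 (0.011%). DESeq2 called 1 of 10 members (Tnni2) and 6.48% of the genes it adjusted, and limma-voom called 0 of 10 and 4.02% of all tested genes.

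The slow isoforms had the largest fold changes and the largest errors. The log2 fold change of KO over WT was 1.20 (SE 0.71, edgeR adjusted p = 0.408) for Myh7, 1.56 (SE 0.67, adjusted p = 0.259) for Tnni1, 1.47 (SE 0.56, adjusted p = 0.204) for Tnnt1 and 1.66 (SE 0.60, adjusted p = 0.190) for Tnnc1. Their median was 1.52, against -0.01 over all tested genes. KO and WT overlapped for all 4. Within the KO group the SD of log2 CPM was 1.24 to 1.60 for the 4 slow genes, against a median of 0.27 over all tested genes, and within WT it was 0.71 to 0.96 against 0.26. The fold changes rested on KO replicates 2 and 4. Without both, the edgeR log2 fold changes were -0.76 (SE 0.52, adjusted p = 0.490) for Myh7, -0.20 (SE 0.48, adjusted p = 0.865) for Tnni1, 0.17 (SE 0.44, adjusted p = 0.878) for Tnnt1 and 0.03 (SE 0.39, adjusted p = 0.974) for Tnnc1. These libraries were left out because their slow isoforms were high, so a lower value without them follows from the choice.

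**Figure D2:**
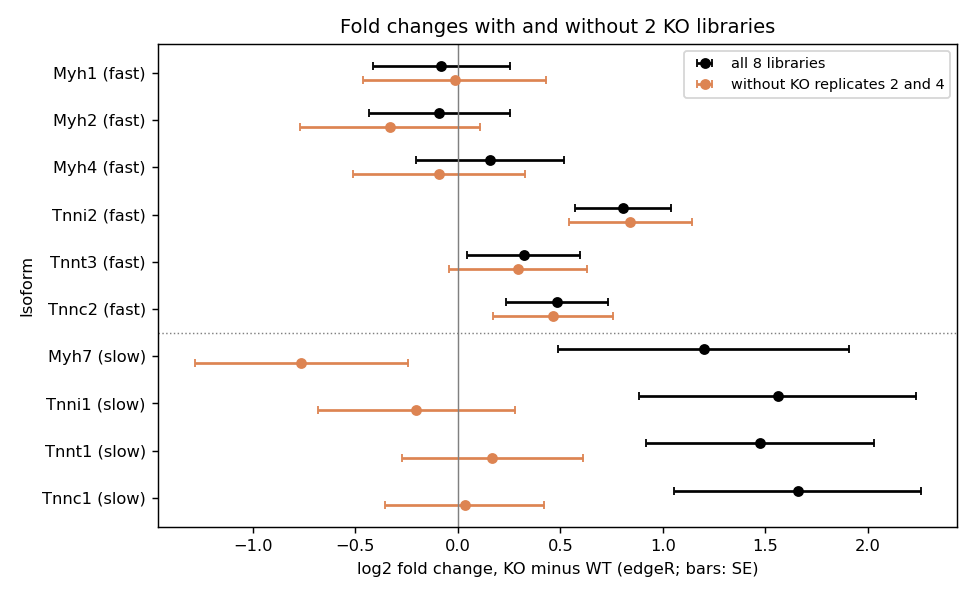
Log2 fold change of KO over WT from edgeR (x axis) for each isoform (y axis) with all 8 libraries (black) and without KO replicates 2 and 4 (orange), bars showing the SE. The 4 slow isoforms move from between 1.20 and 1.66 to between -0.76 and 0.17. The 2 libraries were left out because their slow isoforms were high, so that move follows from the choice. Tnni2 lies at 0.80 and 0.84.

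The fast myosins showed no common shift with genotype. Myh4, the motor of the fastest fibres, was at 29078.5, 30838, 32453 and 14909.5 CPM in WT and at 19272, 22939, 30880 and 46411 CPM in KO, with a log2 difference of 0.16 and SE 0.36 (adjusted p = 0.865 by edgeR). Its lowest and highest values were those of WT replicate 4 and KO replicate 4, the libraries with the lowest and highest pan-muscle sum. Myh1, the motor of type IIx fibres, was at 6433, 2733, 3002 and 2041 CPM in WT and at 3852, 3580, 3152 and 2858 CPM in KO (-0.08, SE 0.34, edgeR adjusted p = 0.931). Myh2, the motor of type IIa fibres, was at 2686, 1043, 1425 and 908 CPM in WT and at 1384, 1889, 1019 and 1397 CPM in KO (-0.09, SE 0.34, edgeR adjusted p = 0.922). WT replicate 1 was highest for both Myh1 and Myh2, and without it their log2 fold changes were 0.37 and 0.34. The fitted trend with exon length and GC content differed by -0.23 to -0.34 log2 units between the groups for the 4 myosins and by -0.09 to 0.04 for the 6 troponins. With that trend removed the log2 fold changes of Myh1 and Myh2 were 0.13 and 0.16, so no direction is given for them.

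Among the fast troponins, Tnni2 was the 1 member whose groups did not overlap. Tnni2, the fast inhibitory subunit, was at 5795, 7103, 7439 and 4564 CPM in WT and at 11446, 9133, 10780.3 and 12114 CPM in KO. Every KO value lay above every WT value, which also held for 7.33% of all tested genes (13.1% in either direction). It also held for the fast fibre gene Pvalb and for Des, Tcap, Cox6a2 and Cav3 of the pan-muscle list. The log2 difference of Tnni2 was 0.80 with SE 0.24 (adjusted p = 0.128 by edgeR). DESeq2 gave 0.81 (adjusted p = 0.00156), limma-voom 0.66 (adjusted p = 0.0620) and edgeR with the mean pan-muscle level as a covariate 0.74 (adjusted p = 0.0193), a setting that called 7.98% of all tested genes. Tnnt3, the fast tropomyosin-binding subunit, was at 14505.5, 18064.5, 18470 and 10734 CPM in WT and at 18600, 14544, 19125 and 24879 CPM in KO, with a log2 difference of 0.32 and SE 0.28 (adjusted p = 0.590 by edgeR). Tnnc2, the fast calcium sensor, was at 3077, 3856, 4456 and 2623 CPM in WT and at 5151, 3645, 4480.4 and 6315 CPM in KO (0.48, SE 0.25, edgeR adjusted p = 0.343). Groups overlapped for both through KO replicate 2. Relative to the pan-muscle sum, Tnni2 amounted to 9.43, 12.5, 12.3 and 14.0% in WT replicates 1 to 4 and to 22.9, 18.1, 18.6 and 14.7% in KO replicates 1 to 4, again without overlap.

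The fast to slow ratio of each library was taken per exonic base for 6 pairs, 3 of fast myosins to Myh7 and 3 of fast to slow troponins. Its size depends on the length used: Myh7 has 8616 exonic bases but 6230 in its longest transcript, against 6016 by both for Myh4. Myh4 to Myh7 stood at 78.1, 324, 114 and 126 in WT replicates 1 to 4 and 150, 33.8, 243 and 43.5 in KO replicates 1 to 4. KO replicates 2 and 4 had the lowest ratios of all libraries, and WT replicate 2 and KO replicate 3 the highest. For Tnni2 to Tnni1 the ratio was 206, 817, 249 and 372 in WT and 528, 129, 866 and 95.0 in KO. For Tnnt3 to Tnnt1 it was 126, 358, 119.8 and 175 in WT and 135, 38.3, 253 and 53.4 in KO. For Tnnc2 to Tnnc1 it was 32.7, 88.8, 35.2 and 49.0 in WT and 57.3, 9.89, 62.3 and 13.4 in KO. KO replicates 2 and 4 were the lowest libraries in all 6 pairs, which share Myh7 in 3 of them, and the pairs spanned 8.36-fold (Myh2 to Myh7) to 11.2-fold (Myh1 to Myh7) between libraries. Summed over isoforms, fast myosins exceeded Myh7 by 101 to 360-fold in WT and 41.2 to 274-fold in KO, and fast troponins exceeded slow ones by 80.6 to 228-fold and 26.5 to 171-fold.

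None of the 6 ratios differed between genotypes beyond the spread between mice. The difference in mean log2 ratio, KO minus WT, was -0.69 for Myh4 to Myh7, -0.78 for Myh1 to Myh7, -0.82 for Myh2 to Myh7, -0.37 for Tnni2 to Tnni1, -0.94 for Tnnt3 to Tnnt1 and -0.85 for Tnnc2 to Tnnc1 (n = 4 each). The two-sided exact permutation p ranged from 0.257 (Tnnt3 to Tnnt1) to 0.686 (Tnni2 to Tnni1), and from 0.514 to 0.686 after Benjamini-Hochberg adjustment over the 6 ratios. The smallest exact permutation p that 4 against 4 can give is 0.0286. The SD of the log2 ratio was 0.46 to 0.88 in WT and 1.25 to 1.70 in KO. What size of difference could be detected at this spread was not tested. Without KO replicates 2 and 4 all 6 differences became positive, at 0.47, 0.65, 0.32, 0.94, 0.08 and 0.34 in the same order. Those libraries were left out for their high slow isoforms and had the lowest ratios in all 6 pairs. A rise without them therefore follows from the choice.

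**Figure D3:**
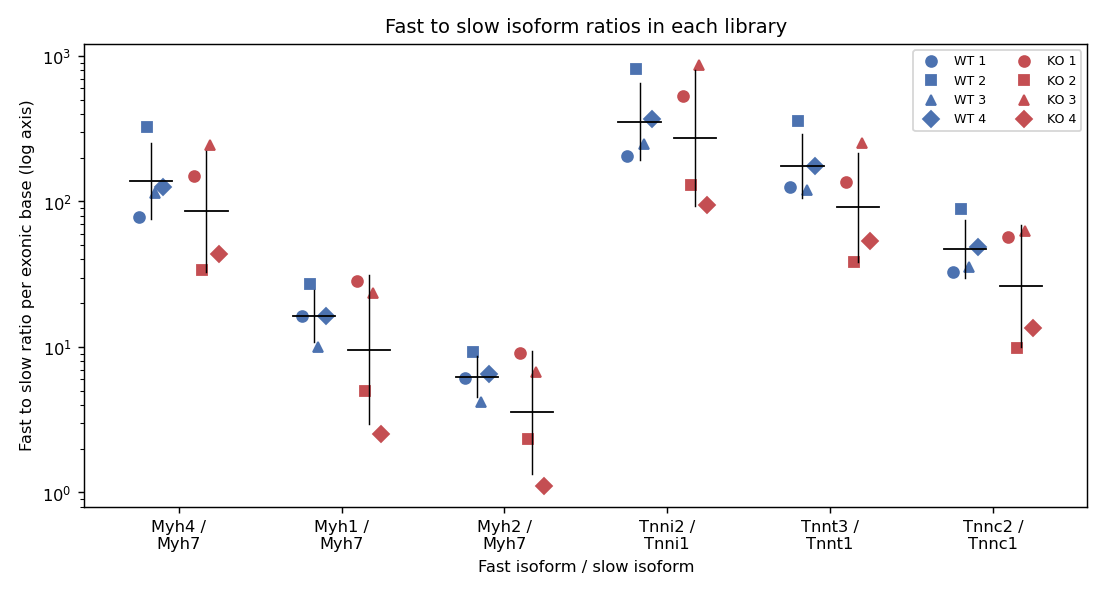
Fast to slow ratio per exonic base (y axis, log scale) for 6 isoform pairs (x axis), 1 symbol per library with WT in blue and KO in red, lines at the mean of the log2 ratio and bars of 1 SD. In each pair the squares and diamonds of KO replicates 2 and 4 lie lowest, while the other 2 KO libraries lie above the lowest WT value.

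The slow isoforms varied as 1 block across the 8 libraries. All 45 pairs of members were correlated on log2 CPM, which share library and scaling. The 6 slow pairs had Pearson r from 0.924 to 0.989 and Spearman rho from 0.929 to 1, and all 6 passed after Benjamini-Hochberg adjustment over the 45 pairs. Tnni1 and Tnnc1, for example, had r = 0.981 (exact permutation p = 2.48e-05, adjusted 0.00112) and rho = 1 (exact permutation p = 4.96e-05). Leaving out the 2 libraries farthest from the median of the first gene, KO replicates 2 and 4, the slow pairs had r from 0.705 (Myh7 with Tnnt1) to 0.967 (Tnnt1 with Tnnc1). Between fast and slow members r ran from 0.141 to 0.619 and rho from 0.262 to 0.762 over 24 pairs, of which 0 passed. Of 15 fast pairs 4 passed, namely Myh1 with Myh2 (r = 0.885, rho = 0.667), Tnni2 with Tnnt3 (r = 0.825, rho = 0.905), Tnni2 with Tnnc2 (r = 0.905, rho = 0.929) and Tnnt3 with Tnnc2 (r = 0.950, rho = 0.976). Without the 2 farthest libraries r was 0.520, 0.493, 0.790 and 0.845, so the first of these pairs rests largely on WT replicates 1 and 4 and the second on WT replicate 4 and KO replicate 4. Myh4 and Myh1 had r = 0.175 with rho = -0.119, and r = -0.853 without WT replicates 1 and 4.

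Other slow fibre genes were also highest in KO replicates 2 and 4, though not all of them. Across all 17450 tested genes, 2.14% had KO replicates 2 and 4 as their highest libraries, a pair chosen after the slow isoforms were seen. Among 14 slow fibre genes that are no members this held for 8 (Myl2, Myl3, Tpm3, Atp2a2, Casq2, Myoz2, Ankrd2 and Myh7b), and among 15 fast fibre genes and 25 pan-muscle genes for 0. It did not hold for the slow fibre genes Csrp3, Mybpc1, Myom3, Mb, Fhl1 and Lmod2. Of these the most abundant peaked elsewhere, Mybpc1 (1401 CPM) and Fhl1 (1138 CPM) in WT replicate 1 and Mb (3144 CPM) in KO replicate 1. Myl2, the slow regulatory light chain, was at 213, 99.1, 208 and 124 CPM in WT and at 163, 398, 105 and 740 CPM in KO. Myl3, the slow essential light chain, was at 238, 106, 299 and 179.5 CPM in WT and at 349, 788, 216 and 598 CPM in KO. The slow tropomyosin gene Tpm3 was at 226 to 369 CPM in WT and at 322, 771, 275 and 811 CPM in KO. Of 16 regulators of fibre type, 2 had this order: Esrra, which encodes an oestrogen-related receptor, and Prox1, a homeobox factor linked to slow fibres. Prox1 was at 1.74 to 3.29 CPM in WT and 2.18, 3.97, 1.85 and 4.81 CPM in KO. Esrra moved little, at 80.5 to 119 CPM in WT and 114, 124, 121 and 131 CPM in KO. The slow calcium pump gene Atp2a2 and Tpm3 are also expressed outside muscle.

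**Figure D4:**
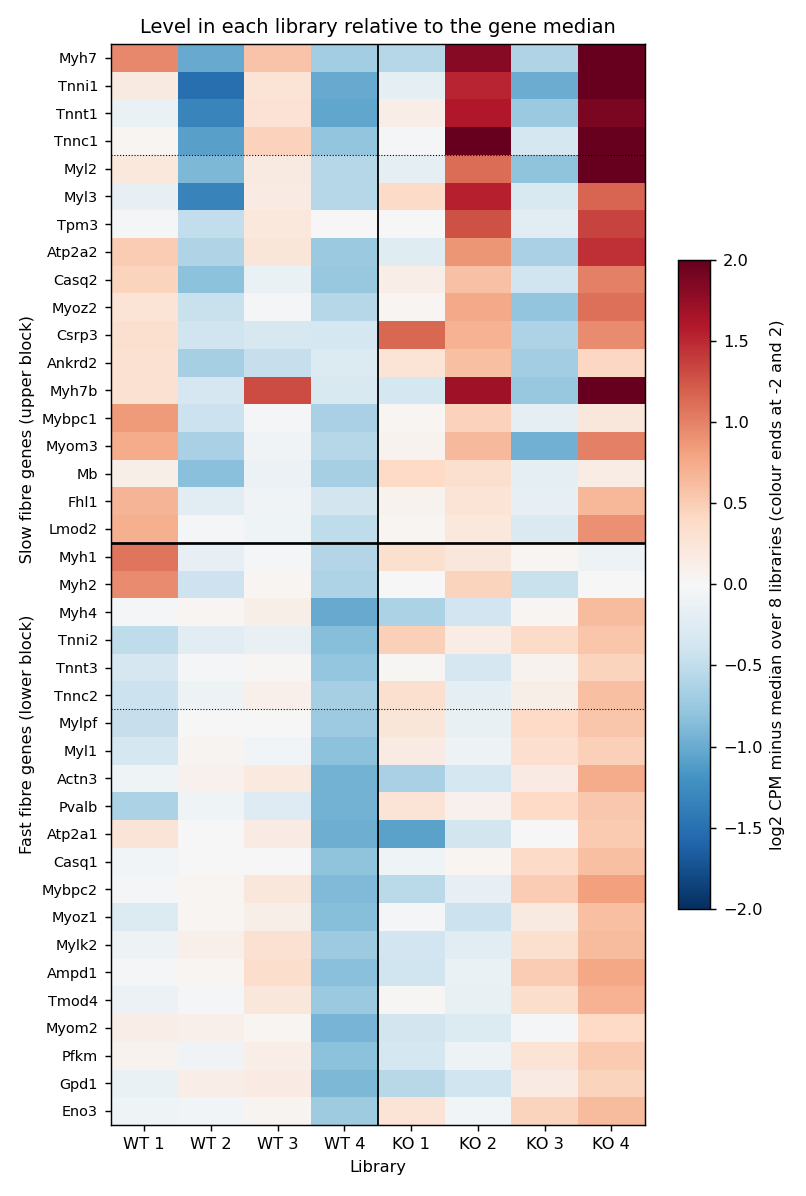
Log2 CPM of each gene minus its median over the 8 libraries (colour scale) for slow fibre genes (upper block) and fast fibre genes (lower block), rows above each dotted line being the members. The columns of KO replicates 2 and 4 are red through most of the slow block, and in the fast block the column of WT replicate 4 is blue and that of KO replicate 4 mostly red.

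None of these lists held a gene that passed edgeR in KO against WT. Positive log2 fold changes were found in 14 of 15 fast fibre genes (median 0.32). An unadjusted p under 0.05 was reached by 1 of them, and 1 was called by DESeq2 and 0 by limma-voom. The 3 most abundant were Atp2a1, the fast calcium pump (11335 ± 3664 CPM WT, 10986 ± 4834 KO), Pvalb, a calcium buffer of fast fibres (6082.5 ± 1577 and 10391 ± 1361), and the light chain gene Myl1 (5215 ± 1311 and 7357 ± 1239; SD, n = 4 each). Pvalb was the gene with an unadjusted p under 0.05 and the DESeq2 call (log2 difference 0.77 with SE 0.25, adjusted p = 0.155 by edgeR). The slow fibre list was positive in 14 of 14 genes, at a median of 0.62, and of -0.12 without KO replicates 2 and 4. Below an unadjusted p of 0.05 were 3 (Myl3, Tpm3 and Csrp3), while 1 was called by DESeq2 (Myl3) and 0 by limma-voom. The most abundant were Mb, which encodes myoglobin (1910 ± 584 CPM WT, 2718 ± 471 KO), Mybpc1, a myosin-binding protein (804 ± 413 and 858 ± 166), and Fhl1 (742 ± 269 and 839 ± 212; SD, n = 4 each). In the pan-muscle list 17 of 25 genes were positive (median 0.13), and Cav3, Cox6a2 and Tcap were the 3 with an unadjusted p under 0.05 and the 3 called by both DESeq2 and limma-voom. Its most abundant genes were Acta1, the actin of skeletal muscle (0.27), the creatine kinase gene Ckm (0.42) and Ttn, the giant spring protein titin (-0.28), with log2 fold changes in brackets.

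Developmental and cardiac isoforms were scarce. The 8 genes of this list summed to 73.1 to 96.1 CPM in WT and 93.1 to 130 CPM in KO, with Actc1, the cardiac actin, at 42.3 ± 17.5 and 50.8 ± 10.5 CPM, the perinatal myosin Myh8 at 17.8 ± 5.13 and 16.1 ± 5.35 CPM and the embryonic light chain Myl4 at 9.59 ± 1.66 and 20.1 ± 14.3 CPM (SD, n = 4 each). In edgeR 0 of 8 passed, as in DESeq2 and limma-voom, and Myh13, Tnnt2 and Myl4 were the 3 with an unadjusted p under 0.05, all higher in KO. Regulators of fibre type had 9 of 16 genes with positive and 7 with negative log2 fold changes, a median of 0.06, and 0 with an unadjusted p under 0.05 or called by any of the 3 tools. Mef2c, a partner of the myogenic factors that osteocytes also express, was at 608 ± 168 CPM in WT and 605 ± 163 CPM with the deletion, Maf at 302 ± 63.3 and 379 ± 92.4, and Tbx15, a factor of glycolytic fibres, at 177 ± 49.1 and 209 ± 19.8 CPM (SD, n = 4 each).

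Markers of other cells were read beside the slow isoforms. KO replicates 2 and 4 were the highest libraries for 0 of 7 tested satellite cell and myoblast markers, 1 of 6 smooth muscle markers (Cnn1), and 0 of 6 tendon, 10 bone, 10 marrow, 5 nerve and 6 fat cell markers. Satellite cell and myoblast markers summed to 45.7 to 90.1 CPM in WT and 63.6 to 89.7 CPM in KO, where the fusion gene Mymk had 0 to 3 counts per library. Tendon markers summed to 612 to 995 and 466 to 1123 CPM, smooth muscle markers to 182 to 214 and 186 to 272 CPM, fat cell markers to 257 to 353 and 324 to 819 CPM, and nerve and Schwann cell markers to 41.0 to 69.5 and 66.4 to 75.0 CPM. Marrow markers summed to 4178 to 11764 CPM in WT and 4597 to 10244 CPM in KO, and of the libraries with high slow isoforms KO replicate 2 had 8102 CPM and KO replicate 4 had 4597 CPM. In edgeR 0 genes of these 7 lists passed, and 8 of their genes were higher and 3 lower at an unadjusted p under 0.05. The nerve and Schwann cell list held 4 of those 8, and all 5 of its tested genes had positive log2 fold changes (median 0.46). DESeq2 called Cnn1, Fabp4 and, from that list, Chrna1, and limma-voom called 0. By mean level the leading genes of the other 6 lists were Myod1, Chodl and Cdh15 (satellite cells and myoblasts), Smtn, Acta2 and Myh11 (smooth muscle), Fmod, Thbs4 and Col12a1 (tendon), Col1a1, Ibsp and Bglap (bone), Hbb-bs, Hba-a1 and S100a9 (marrow), and Fabp4, Cfd and Adipoq (fat). Among these 18 genes the log2 fold change ran from -0.54 (Col12a1) to 1.08 (Cfd). Their part in the spread of the slow isoforms was not tested. The pan-muscle sum was 50467 CPM in KO replicate 2 and 82626 CPM in KO replicate 4, and the 4 slow isoforms amounted to 4.26% and 3.75% of it there, against 0.498 to 1.44% in WT and 1.09% and 0.707% in KO replicates 1 and 3.

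The genes most like the members were ranked by Pearson correlation of log2 CPM over the 8 libraries, among all tested genes outside the set. Closest to the mean of the slow isoforms were Myl2 (r = 0.984), Atp2a2 (0.967), Tpm3 (0.958), the zinc transporter family gene Slc30a9 (0.956) and the cardiac myosin Myh6 (0.952), whose counts can share reads with Myh7. Slc30a9 moved little, from 103 to 131 CPM, and Myh6 was at 0.733 to 2.60 CPM in WT and 0.659 to 7.28 CPM in KO. Closest to the mean of the fast isoforms were Strn3 (r = 0.990), Msantd4 (0.985), Dynlt3 (0.983), Opa3 (0.980) and Dusp8 (0.978), each lowest in WT replicate 4 and highest in KO replicate 4. None of these 10 genes passed edgeR in KO against WT, with adjusted p from 0.246 to 0.785.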

How the data were processed

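Whole-number read counts per Ensembl gene were deposited as 1 table, with 1 column per library. The authors' table came from bcl2fastq 2.17, STAR 2.5.2b, Subread 1.5.2 and its featureCounts on mm10, names taken per the submitters' processing notes. Settings, annotation release and strand: not given in the sources used here. The library kit was NEBNext Ultra II RNA, per the labels' protocols. Of 49315 IDs, 49056 matched GENCODE M21. The other 259 took 0.0190 to 0.0225% of the counts of a library. The lowest chi-square per degree of freedom between libraries was 39.4, so none was a repeat.

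The genotypes were tested in R 4.3.3 by edgeR 4.0.16 (quasi-likelihood, robust dispersion, TMM, filterByExpr, group only), adjusted over 17450 genes with a threshold of 0.05. CPM used TMM-scaled library sizes, log2 CPM a prior count of 2 and ratios a pseudocount of 0.5. Exon length is the union of GENCODE exons, which can exceed the longest transcript, so levels, shares and ratios between genes depend on that choice. Alternatives used DESeq2 1.42.0 and limma 3.58.1, among other settings. The fit was tested on simulated data. Members and lists were chosen with earlier results of these data known. All members were named, as were the 3 most abundant genes of every other list but 1 and the 5 genes most like each class. Other genes named were chosen after their values were seen. Some single genes of the nerve and Schwann cell list are not reported here.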

Additional observations from a re-analysis of the deposited data

Results flagged for a closer look

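Within WT, Myh4 had 1 library far from the others. WT replicate 4 was at 14909.5 CPM and the other 3 WT libraries at 29078.5 to 32453 CPM, so that the gap to the nearest of them took 0.859 of the group's range on the log2 scale, above Dixon's limit for 4 values. The pan-muscle sum of that library was also the lowest, at 32543 CPM. Of 32 groups of 4 examined (10 isoforms and 6 ratios in 2 genotypes) this was the 1 that passed the limit, where chance gives about 1 in 20.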

How the results depend on the processing

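The number of genes called in KO against WT depended strongly on the setting. It was 2 in edgeR, 992 with DESeq2, 701 with limma-voom, 71 with no low-count filter, 1393 with the pan-muscle score as a covariate, 458 without both replicates 4, and 2 to 4 when each library was left out in turn (4 without KO replicate 4). Members called were 0 in edgeR, 1 with DESeq2, 1 with the pan-muscle score as a covariate (Tnni2 both times), and 0 when each library was left out in turn. With the replicate number as a block 1 gene and 0 members were called, and the log2 fold changes of Myh1 and Myh2 were 0.055 and 0.011. The labels state no pairing by number. Same-numbered WT and KO libraries had correlations of their deviations from -0.57 to -0.17, which cannot settle whether the numbers mark a pairing. Under the block the ratio of Tnnt3 to Tnnt1 differed by -0.94 (exact sign-flip p = 0.5, smallest possible 0.125).

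Directions of the fast myosins were not stable. Myh4 changed sign with limma-voom (-0.068), the pan-muscle score as a covariate (-0.076), both replicates 4 left out (-0.34) and KO replicates 2 and 4 left out (-0.093), and it ranged from -0.14 to 0.31 when each library was left out in turn. Myh1 and Myh2 changed sign once the length and GC trend was taken out (0.13 and 0.16), and ranged from -0.27 to 0.37 and from -0.27 to 0.34 with each library left out. Myh7 and Tnni1 changed sign without KO replicates 2 and 4 (-0.76 and -0.20). Without KO replicate 4 alone the log2 fold changes were 0.52 for Myh7 and 0.83 for Tnni1. Tnni2 kept its sign and ranged from 0.68 to 0.90 with each library left out (lowest edgeR adjusted p = 0.128), and its adjusted p ran from 0.00156 (DESeq2) to 0.504 (replicate number as a block) over the other settings. Library totals without TMM shifted the median of all genes by -0.10 and left 8 of 10 members with a positive log2 fold change, as did TMM.

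Differences in log2 ratio ranged, with each library left out in turn, from -1.19 to -0.24 (Myh4 to Myh7), -1.30 to -0.14 (Myh1 to Myh7), -1.27 to -0.26 (Myh2 to Myh7), -0.92 to 0.14 (Tnni2 to Tnni1), -1.43 to -0.52 (Tnnt3 to Tnnt1) and -1.27 to -0.38 (Tnnc2 to Tnnc1). Tnni2 to Tnni1 changed sign without WT replicate 2 (0.03), without KO replicate 4 (0.14) and without both replicates 4 (0.16). Without KO replicates 2 and 4 the 6 differences were 0.47, 0.65, 0.32, 0.94, 0.077 and 0.34, a rise that follows from leaving out the lowest ratios. Those 2 libraries and the newer quasi-likelihood method (2 genes, 0 members called) were chosen after seeing the data. With 1 library left out the exact permutation test has only 35 arrangements, and its lowest p was 0.114 (Tnnt3 to Tnnt1). Those tests say little about stability. The cause of these changes was not tested.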

Other observations

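Relations among the fast isoforms were noticed after their values were seen and are given as values with no test. Per exonic base the ratio of Tnni2 to Tnnt3 was 0.422, 0.416, 0.426 and 0.450 in WT replicates 1 to 4 and 0.651, 0.664, 0.596 and 0.515 in KO replicates 1 to 4. The groups did not overlap, and the difference in mean log2 ratio was 0.49, or 0.49 with the trend with exon length and GC content removed. Tnni2 to Tnnc2 was 1.01, 0.984, 0.892 and 0.930 in WT and 1.19, 1.34, 1.29 and 1.03 in KO, again without overlap (difference 0.34, or 0.36 with the trend removed). RNA counts of the fast troponin genes were thus not in a fixed ratio in these libraries, and KO replicate 4 was the KO library nearest to WT in both ratios. Proportions of the proteins were not measured.

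The myosins of fast fibres also differed between mice in a way that did not follow genotype. The ratio of Myh4 to Myh1 per exonic base ran from 4.77 in WT replicate 1 and 5.28 in KO replicate 1 to 17.1 in KO replicate 4, whereas Myh1 to Myh2 stayed between 2.13 and 3.48 in all 8 libraries. The KO minus WT difference in mean log2 ratio was 0.09 for Myh4 to Myh1 and 0.04 for Myh1 to Myh2, against SDs of 0.61 and 0.74 for the first and 0.13 and 0.34 for the second in WT and KO. KO replicate 4, the library with the highest Myh4 to Myh1 ratio, was also the library with the most Myh7 and, with KO replicate 2, the highest slow share.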
